A study of Mus musculus with 6 samples.

Results

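Voltage-gated and potassium ion channel genes are described here in the embryonic mouse cortex after loss of the histone deacetylases HDAC1 and HDAC2. The members were taken by gene symbol: K+ channel genes (Kcn), voltage-gated Na+ channel genes (Scn), Ca2+ channel genes (Cacn), hyperpolarization-activated channel genes (Hcn) and the TRPC, TRPM and TRPV families, leaving out 1 gene of the TRPM family, with 1 row kept per symbol. The rule found 68 of the 12041 gene symbols in the table. It holds no measured difference between the groups, but the members were chosen with earlier results of these data known. Of the 68 members, 65 are named as channel subunits and 3 are matched by letters only (Kcnq1ot1, Kcnmb4os2 and Trpc4ap).

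RNA was sequenced from 3 libraries of conditional knockout cortex (cKO), in which both Hdac1 and Hdac2 carry the conditional deletion, and 3 libraries of wild-type cortex (WT). All were from C57BL/6 mice at embryonic day 12.5. The tissue labels give cortex for both groups, whereas the design text speaks of the forebrain. The labels and notes used here name no Cre driver, deleted exons, litters or number of embryos per library. Each p-value below therefore rests on the variation among 3 libraries a group, and that variation may be technical. The table's column names carry their own numbers: HM-5, HM-13 and HM-16 were read as cKO and HC-1, HC-8 and HC-10 as WT.

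HDAC1 and HDAC2 remove acetyl groups from histones and are the catalytic subunits of several corepressor complexes, among them the one recruited by the repressor REST, which binds near many neuronal genes. Ion channels are built from pore-forming α subunits, which carry the current, and auxiliary subunits, which change gating or transport to the membrane. In neurons K+ channels set the resting potential and end the action potential, Na+ channels start it, Ca2+ channels admit Ca2+, and HCN channels carry the depolarizing pacemaker current that opens on hyperpolarization. The embryonic cortex at this age is made mostly of dividing radial glia and newly formed neurons, and many channels of mature neurons are known to come on later.

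The promoters of 4 members that were higher in cKO cortex are shown first because the deacetylases act on chromatin at such sites. Each line gives the 120 bases just before a RefSeq transcript start (GRCm38.p6), read 5′ to 3′ on the gene's own strand. Capitals mark the GC box GGGCGG or its reverse complement CCGCCC.
Hcn2 promoter, chr10:79716514-79716633, plus strand: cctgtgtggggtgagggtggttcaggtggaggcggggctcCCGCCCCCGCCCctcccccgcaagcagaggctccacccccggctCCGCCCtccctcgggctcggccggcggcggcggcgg
Hcn4 promoter, chr9:58822829-58822948, plus strand: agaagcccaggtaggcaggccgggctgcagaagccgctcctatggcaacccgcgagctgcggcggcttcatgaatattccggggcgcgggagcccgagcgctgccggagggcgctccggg
Kcnc1 promoter, chr7:46396348-46396467, plus strand: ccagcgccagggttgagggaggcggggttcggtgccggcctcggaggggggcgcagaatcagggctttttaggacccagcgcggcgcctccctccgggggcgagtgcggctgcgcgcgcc
Trpv6 promoter, chr6:41636406-41636525, minus strand: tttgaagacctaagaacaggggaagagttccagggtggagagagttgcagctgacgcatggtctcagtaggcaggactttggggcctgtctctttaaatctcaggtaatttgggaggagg
None of the 4 stretches overlaps an annotated exon. The start used for Hcn2 and Trpv6 is that of the measured transcript, whereas it lies 29 bases from it for Kcnc1 and 463 bases from it for Hcn4. Hcn2 holds 3 GC boxes in this stretch and the other 3 genes hold 0, but in the longer windows described next Kcnc1 also holds 3 and Hcn4 holds 2. The G+C content was 80.8% at Hcn2, 71.7% at Hcn4, 75.8% at Kcnc1 and 50.8% at Trpv6, so a promoter rich in G+C was not a feature that all 4 share.

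RefSeq windows of 300 bases, 250 before and 50 after the start, were found for 45 of the 68 members. The start lay within 1000 bases of that of the measured transcript for 41 of them and further away for 4, among them Kcnn3, at 142354 bases. Their median G+C content was 63.7%, against 52.7% over all 32851 windows, and their median number of CG dinucleotides was 19, against 7. GGGCGG, searched on both strands, was present in 60% of the member windows and in 35.7% of all windows. Within the members it was in 3 of the 7 windows of genes that differed with voom, a test described below, Kcnn3 included, and in 24 of the other 38. The REST element was searched on both strands as its parts CAGCACC and GGACAG, and whole, with both parts in this order and 2 bases between them. The whole element was in 0 of the 45 member windows and in 0.0365% of all windows. CAGCACC was in 4 member windows (8.89%, against 7.14% of all) and GGACAG in 12 (26.7%, against 22.2%).

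The knocked-out genes were low in every cKO library. Levels are in FPKM, fragments per kilobase of transcript scaled by a size factor for each library rather than by its total reads. Hdac1 had 45.5, 61.0 and 47.4 FPKM in the cKO libraries, against 212, 197 and 193 FPKM in the WT libraries (limma adjusted p = 0.000307). Hdac2 had 37.6, 61.7 and 47.5 FPKM in cKO against 134, 216 and 272 FPKM in WT libraries (limma adjusted p = 0.00441). Reads recovered from the deposited values summed to 9712556 to 11922665 per library, and ribosomal Rn45s took 29.7% of them in the cKO library HM-13 and 0.506% to 2.48% in the other 5. The summed FPKM of the neuronal marker list was 899 to 1325 in cKO and 1212 to 1610 in WT libraries, and all 10 tested neuronal markers had a log2 difference below 0; limma called 0 of them (4 at an unadjusted p under 0.05) and voom called 2 lower. The radial glia list summed to 2471 to 2897 FPKM in cKO and 2997 to 3275 FPKM in WT libraries, without overlap. Its genes did not move together: of 5 tested, 3 had a log2 difference above 0 and 2 below. An unadjusted limma p under 0.05 was found for 4 of them. Fabp7 fell to 37.8% of its WT mean (limma adjusted p = 0.00643). Sox2, Hes1 and Hes5 were higher in cKO, with log2 differences of 0.22, 0.28 and 0.27, and were not called. The microglia list, 4 of whose 6 genes were in the table, summed to 46.8 to 49.6 FPKM in cKO and 31.5 to 35.8 FPKM in WT libraries, and the dorsal telencephalon list, with 5 of 6 genes in the table, to 438 to 587 FPKM in cKO and 451 to 509 FPKM in WT libraries. Limma and voom called 0 genes of the remaining lists, whose sums overlapped between the groups. The GABAergic list (2 of 6 genes found) summed to 1.46 to 17.7 FPKM in cKO and 4.47 to 44.4 FPKM in WT libraries. Meninges and mesenchyme summed to 248 to 402 FPKM in cKO and 208 to 455 FPKM in WT libraries. Endothelium and pericytes gave 102 to 130 and 73.5 to 133 FPKM, and erythroid cells 16507 to 24205 and 14471 to 19484 FPKM. The part of these cell types in the channel differences was not tested, and in bulk tissue fewer cells of a type and less RNA per cell cannot be told apart.

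Most channel genes were transcribed at low levels, and those that moved mostly moved up. The mean over the 6 libraries was under 1 FPKM for 33 of the 68 members. A gene was tested with limma on log2(FPKM + 1) when at least 3 libraries had at least 1 FPKM, which left 38 members among 9359 genes. With Benjamini-Hochberg adjustment over all of these and a threshold of 0.05, 8 members rose (Hcn2, Hcn3, Hcn4, Kcng1, Kcnc1, Kcnab3, Cacna1h and Trpv6) and 1 fell (Cacna1e). Over all genes tested, 18% were called, 9.62% higher and 8.39% lower in cKO. Kcnab3, Cacna1h and Trpv6 passed the level filter only through their cKO libraries. Hcn2 and Kcnc1 reached 1 FPKM in 3 cKO libraries and 1 WT library, so they too needed their cKO libraries to pass. The limma rises of these genes are therefore not to be read against the shares of all genes. The median log2 difference of the 38 tested members was 0.08, against -0.01 over all genes.

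**Figure D1:**
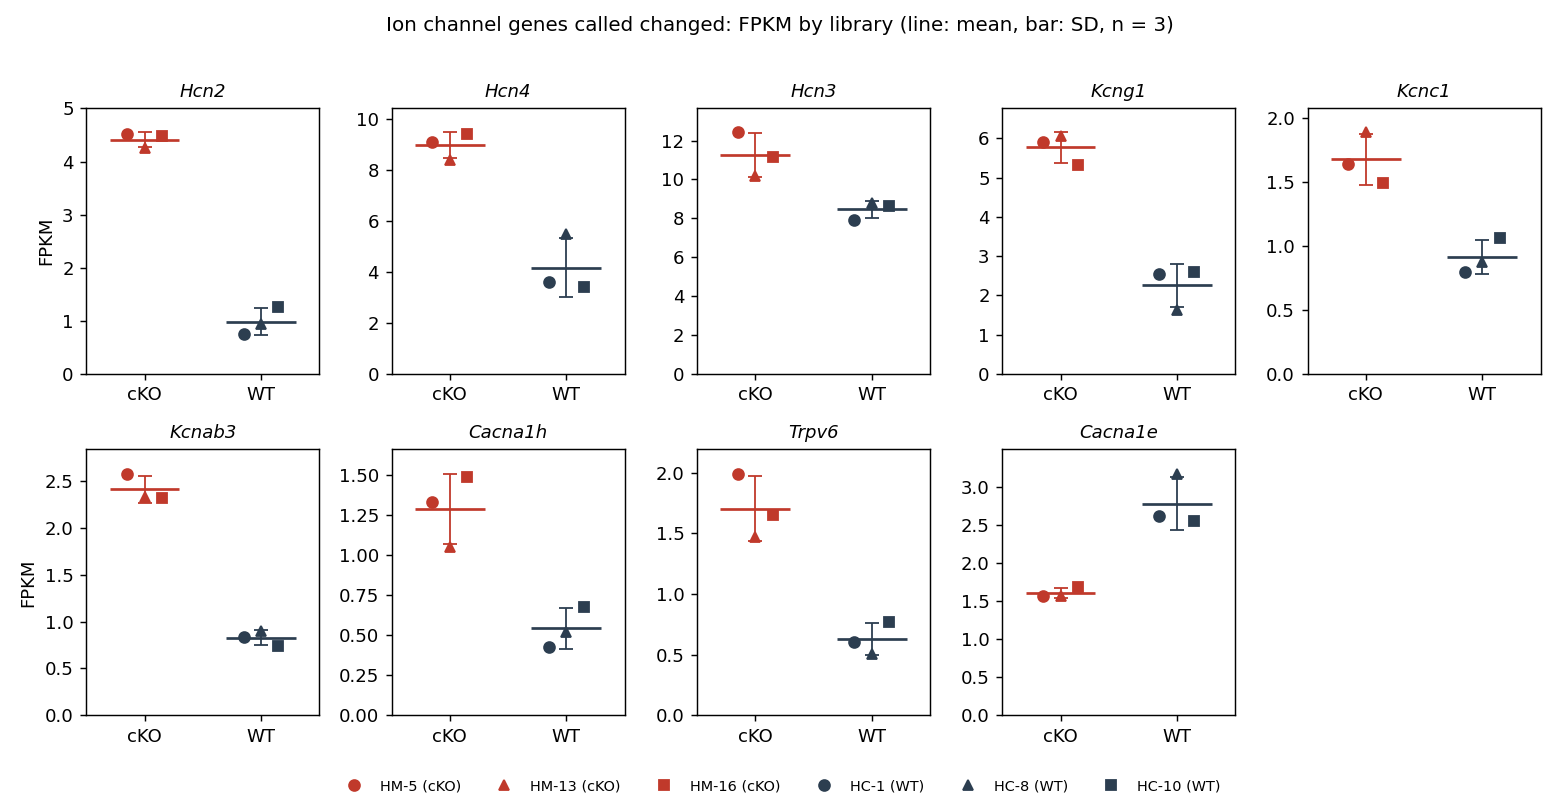
FPKM of the 9 called channel genes in each library, cKO on the left and WT on the right of each panel, with the mean (line) and SD (bar) of 3 libraries. The cKO and WT points do not overlap in any panel, and Cacna1e is the 1 gene with the cKO points below the WT points.

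A second test without a level filter covered all 68 members. The deposited values divide into whole reads, and limma's voom on those reads called 14 members higher and 2 lower in cKO, against 8.84% and 6.62% of all 12041 genes (15.5% in either direction). Among genes with a mean under 5 FPKM, where 61 of the members lie, it called 19.7% of the members higher and 3.28% lower, against 6.58% and 1.89% of all such genes (8.48% in either direction). Members that voom added include Kcnn3, Kcnt1, Trpm4 and Scn11a, higher in cKO, and Scn2a1, lower in cKO. For counts at an unadjusted p under 0.05, above and below, the share of all genes is not given. That share is at least the 18% (limma) and 15.5% (voom) called after adjustment. In the authors' deposited table, 46 members have a false discovery rate (FDR), and it is under 0.05 for 10 higher and 1 lower in cKO, where the authors' deposited table calls 11.5% of all genes with an FDR higher, 9.43% lower and 20.9% in either direction.

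The values of the cKO and WT libraries did not overlap for 22 members, 18 higher and 4 lower in cKO. That is 32.4% of the members, below the 35.2% found over all genes, and the share higher in cKO was 26.5%, against 18.1% of all genes. The share lower was 5.88%, against 17% of all genes.

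**Figure D2:**
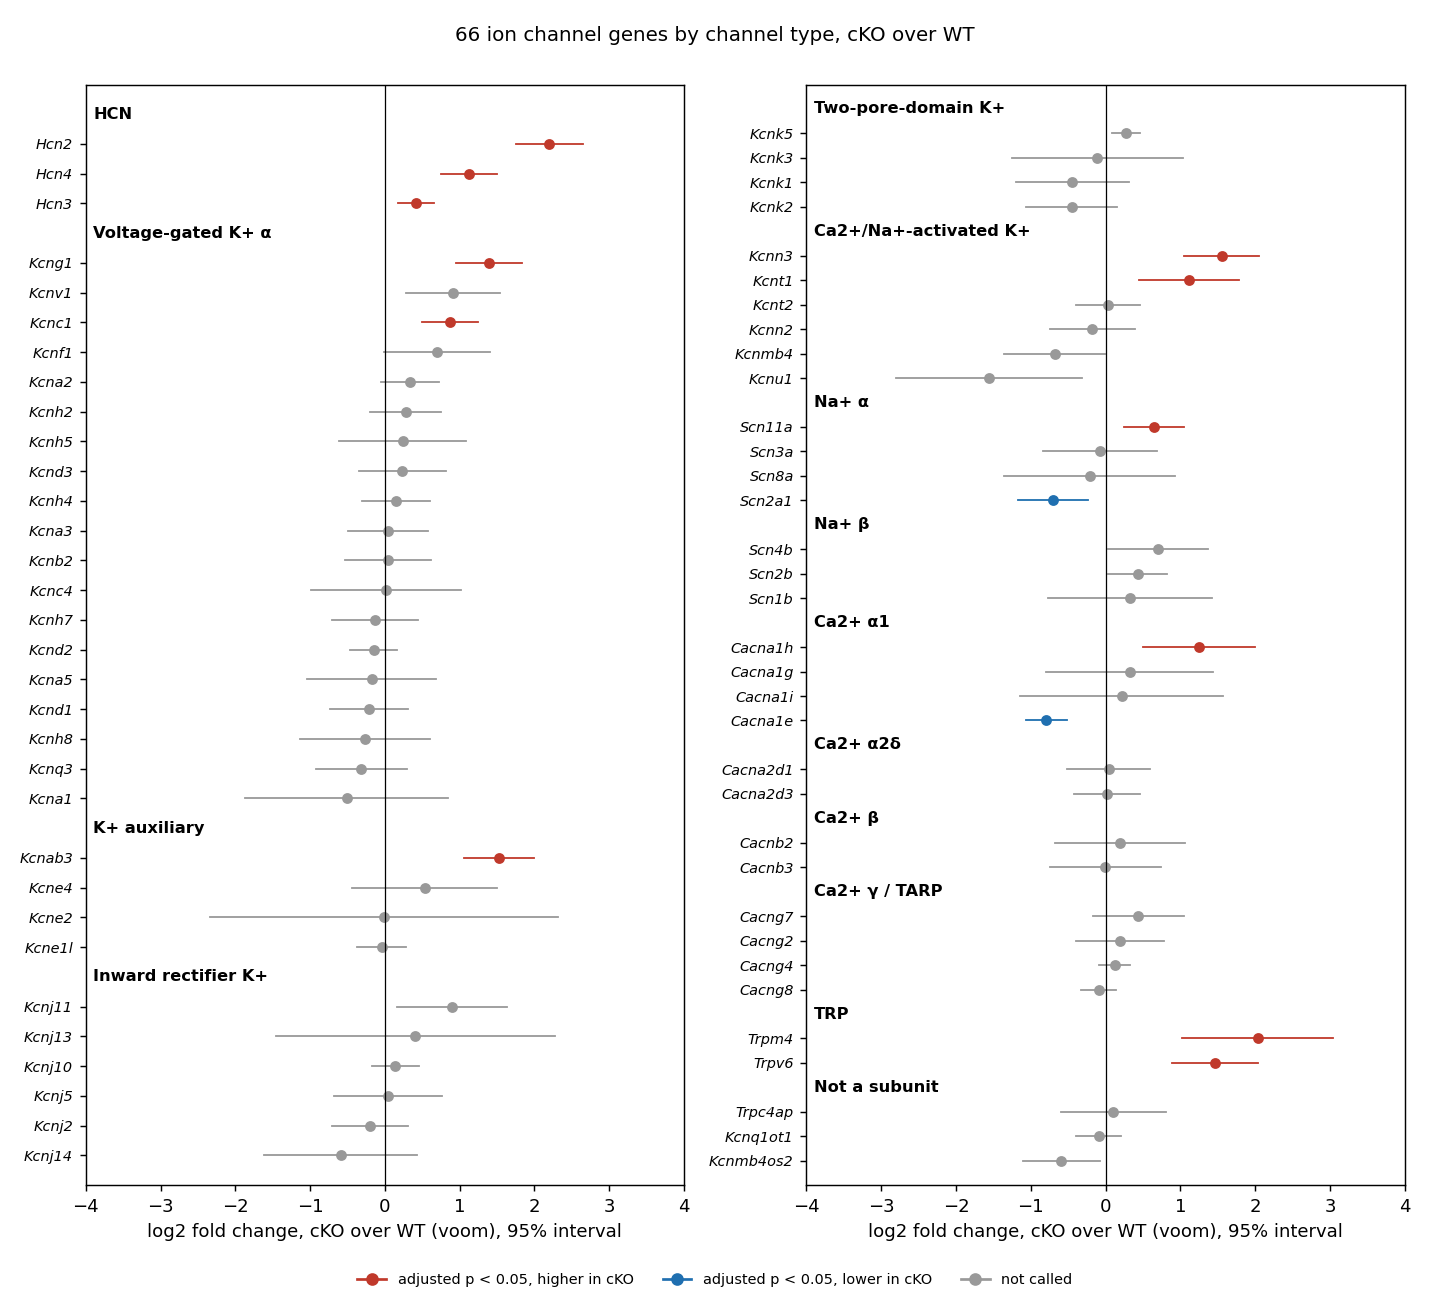
The log2 difference between cKO and WT from voom with its 95% interval for 66 of the 68 genes, grouped by channel type; red marks genes called higher in cKO, blue genes called lower and grey genes not called. All 3 HCN genes and both TRP genes are red, and Cacna1e and Scn2a1 are blue.

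All 3 members of the HCN family rose. Hcn2, Hcn3 and Hcn4 encode pore-forming subunits of the pacemaker channel. Hcn2 (chr10:79716634-79736108, plus strand, GRCm38), whose GC-rich promoter is shown above, had 4.51, 4.25 and 4.48 FPKM in cKO libraries, against 0.751, 0.933 and 1.26 FPKM in WT libraries. The lowest cKO library thus stood well above the highest WT library. The mean was 4.41 ± 0.142 FPKM in cKO and 0.983 ± 0.259 FPKM in WT cortex (SD, n = 3 each), 4.49-fold higher in cKO, with a log2 difference of 1.46 (SE 0.127) on the log2(FPKM + 1) scale and an adjusted p of 0.00117 with limma. It was called with each of the 6 libraries left out in turn.

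Hcn4, the subunit best known from the sinoatrial node of the heart (chr9:58823412-58863175, plus strand), had 9.10, 8.41 and 9.41 FPKM in cKO libraries, against 3.60, 5.50 and 3.41 FPKM in WT libraries. The groups were apart, although HC-8 stood above the other WT libraries. The cKO mean was 8.97 ± 0.516 FPKM and the WT mean 4.17 ± 1.15 FPKM (SD, n = 3 each), a 2.15-fold difference (log2 difference 0.97, SE 0.16, limma adjusted p = 0.00828), and the call held without any 1 library.

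Hcn3 (chr3:89146074-89160196, minus strand) was the most abundant of the family in both groups. It had 12.4, 10.2 and 11.2 FPKM in cKO libraries, against 7.93, 8.80 and 8.63 FPKM in WT libraries, 1.33-fold higher in cKO (log2 difference 0.37, SE 0.10, limma adjusted p = 0.0423). The groups did not overlap, but the call was kept only when HM-13 was left out; without any other library the adjusted p was above the threshold, up to 0.161. Exons of Pklr lie on the opposite strand of Hcn3, and the notes used here do not say whether counting used strand.

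Because FPKM is per length, the 3 transcripts can be summed. The family sum was 26.1, 22.8 and 25.1 FPKM in cKO libraries, against 12.3, 15.2 and 13.3 FPKM in WT libraries. Hcn2 made up 17.9% ± 0.654 of the sum in cKO and 7.24% ± 1.95 in WT cortex (SD, n = 3 each), and Hcn3 made up 45.6% ± 1.84 in cKO and 62.4% ± 4.0 in WT cortex. The share of Hcn4 was 36.4% ± 1.35 in cKO and 30.3% ± 5.30 in WT cortex, and the values of the groups overlapped. The Hcn2 share of the transcripts was thus larger in all 3 cKO libraries than in any WT library.

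**Figure D3:**
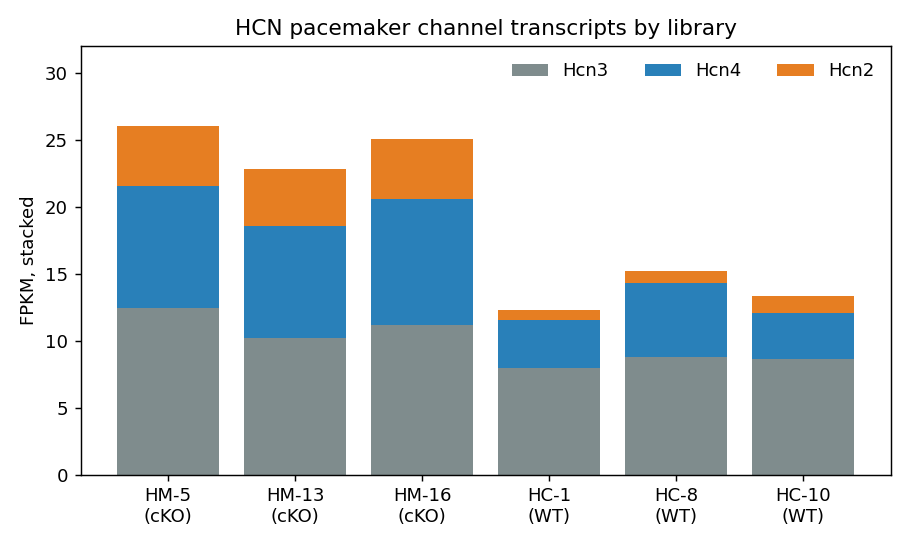
Stacked FPKM of Hcn3, Hcn4 and Hcn2 in each library, with the 3 cKO libraries on the left and the 3 WT libraries on the right. The cKO columns reach 22.8 to 26.1 FPKM and the WT columns 12.3 to 15.2 FPKM, and the Hcn2 segment is taller in each cKO column.

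Voltage-gated K+ α subunits were the largest type, with 20 members, of which 12 were tested; 2 rose and 0 fell. Kcng1 encodes a modifier subunit that forms no channel alone but joins subunits of the Kcnb (Shab) group. It had 5.92, 6.07 and 5.32 FPKM in cKO libraries, against 2.53, 1.63 and 2.59 FPKM in WT libraries, and the cKO values lay above all WT values. The 2.56-fold difference (log2 difference 1.07, SE 0.148, limma adjusted p = 0.00496) was called without any 1 library. Kcnb2, the Kcnb gene in the table, averaged 1.26 ± 0.133 FPKM in cKO and 1.29 ± 0.497 FPKM in WT cortex (SD, n = 3 each, limma adjusted p = 0.997).

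Kcnc1, of the Shaw group, is known for fast repolarization in fast-spiking neurons. Kcnc1 (chr7:46396497-46438704, plus strand), whose promoter is shown above, had 1.65, 1.89 and 1.5 FPKM in cKO libraries, against 0.799, 0.877 and 1.06 FPKM in WT libraries. The groups did not overlap, and the log2 difference was 0.49 (SE 0.116, limma adjusted p = 0.0274). With limma this call was kept only without HC-10 and was lost without HM-5, HM-13, HM-16, HC-1 or HC-8 (adjusted p up to 0.0951), whereas with voom it held in all 6 such fits. A second Kcnc1 row, for another transcript, had 0.551, 0.776 and 0.612 FPKM in cKO libraries, against 0.574, 0.253 and 0.693 FPKM in WT libraries, and there the groups overlapped.

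The 2 K+ α subunits with the highest mean over all 6 libraries, Kcna3 and Kcnd2, did not pass the test, although in cKO cortex Kcng1 stood above Kcnd2. Kcna3, a delayed rectifier best known from lymphocytes, had 12.1, 18.9 and 13.3 FPKM in cKO libraries, against 10.2, 13.5 and 19.6 FPKM in WT libraries, and the spread within each group exceeded the difference between them (limma adjusted p = 0.904). Kcnd2, which carries A-type current in dendrites, averaged 3.95 ± 0.526 FPKM in cKO and 4.44 ± 0.490 FPKM in WT cortex (SD, n = 3 each, limma adjusted p = 0.487). Kcnv1, a silent modifier like Kcng1, had 1.57, 1.29 and 1.48 FPKM in cKO libraries, against 1.25, 0.663 and 0.543 FPKM in WT libraries; the groups did not overlap, but the limma adjusted p was 0.0916.

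Among the 4 auxiliary K+ subunits, Kcnab3 rose. It encodes a cytoplasmic β subunit that binds Shaker-type α subunits. Kcnab3 (chr11:69326258-69333042, plus strand) had 2.58, 2.33 and 2.32 FPKM in cKO libraries, against 0.841, 0.897 and 0.740 FPKM in WT libraries, with all cKO values above all WT values. It was 2.92-fold higher in cKO cortex (log2 difference 0.90, SE 0.105, limma adjusted p = 0.00299). Without a cKO library it did not pass the filter, and with voom, which has none, it was called with each of the 6 libraries left out. Its second row, at 0.583, 0.273 and 0.625 FPKM in cKO against 0.209, 0.148 and 0.133 FPKM in WT libraries, was also higher in every cKO library. The antisense gene Kcnab3os overlaps its exons, and reads of the 2 cannot be told apart where counting ignored strand. Kcne1l, the most abundant of the type, averaged 10.2 ± 0.341 FPKM in cKO and 10.6 ± 1.74 FPKM in WT cortex (SD, n = 3 each, limma adjusted p = 0.817).

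Limma and voom each called 0 of the inward rectifiers and 0 of the tandem-pore K+ channels, of which limma tested 3 of 6 and 2 of 4. At an unadjusted p under 0.05, limma gave 1 of them, Kcnk5, and voom 2, Kcnk5 and Kcnj11. Kcnj10, the glial rectifier that clears K+ in the mature brain, averaged 4.13 ± 0.207 FPKM in cKO and 3.81 ± 0.672 FPKM in WT cortex (SD, n = 3 each, limma adjusted p = 0.622). Kcnk5, an acid-sensitive background channel, had 21.4, 18.9 and 21.6 FPKM in cKO libraries, against 16.5, 17.1 and 17.6 FPKM in WT libraries, the highest of the K+ channel members. Its groups did not overlap, and the limma adjusted p was 0.062, so it missed the threshold; it was called when HM-13 was left out or when at least 5 FPKM was asked for. Kcnk1, a weakly conducting background channel, averaged 2.82 ± 0.538 FPKM in cKO and 4.06 ± 1.78 FPKM in WT cortex (SD, n = 3 each, limma adjusted p = 0.391).

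Kcnj13 and Kcne2 followed individual libraries rather than genotype. Both encode channel subunits known from the choroid plexus epithelium, the tissue that secretes cerebrospinal fluid. Kcnj13 had 0.926, 1.06 and 0.745 FPKM in cKO libraries, against 1.25, 1.87 and 0.0921 FPKM in WT libraries, and Kcne2 had 1.51, 1.71 and 0.448 FPKM against 2.20, 3.10 and 0.111 FPKM. In both genes HC-8 was the highest and HC-10 the lowest library. Exons of Gigyf2 overlap Kcnj13 on the other strand. Ttr, the defining choroid plexus transcript, had 64.5, 68.4 and 27.1 FPKM in cKO libraries, against 118, 145 and 0.0769 FPKM in WT libraries, and Clic6, a chloride channel protein of the same epithelium, had 7.58, 7.69 and 9.04 FPKM against 11.3, 20.6 and 0.0251 FPKM. Msx1 and Lmx1a, transcription factor genes of the dorsal midline, were likewise highest in HC-8 and lowest in HC-10. Otx2, another of that region, was not lowest there, with 0.206, 0.432 and 1.15 FPKM in cKO libraries, against 0.952, 1.83 and 0.480 FPKM in WT libraries. These 5 markers were chosen after their values were seen, and the part of choroid plexus tissue in the channel values was not tested.

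**Figure D4:**
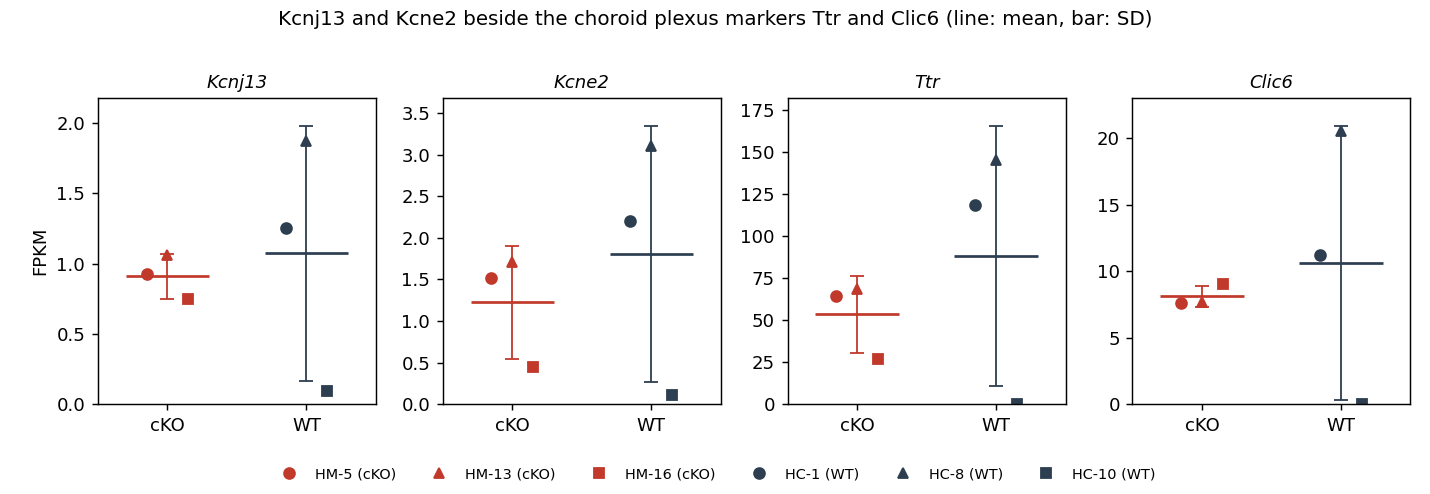
FPKM of Kcnj13, Kcne2 and the choroid plexus transcripts Ttr and Clic6 in each library, cKO on the left and WT on the right of each panel, with the mean (line) and SD (bar) of 3 libraries. In all 4 panels the WT library HC-8 is the highest point and the WT library HC-10 the lowest.

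Ca2+- and Na+-activated K+ channels had 6 members, of which the 2 tested with limma were not called, also at an unadjusted p under 0.05, while voom called 2 others higher. At an unadjusted p under 0.05 voom gave 4 of the 6, and those of the 4 that it did not call were lower in cKO. Kcnn3, a small-conductance Ca2+-activated channel that shapes the afterhyperpolarization, had 1.01, 0.899 and 0.734 FPKM in cKO libraries, against 0.280, 0.309 and 0.296 FPKM in WT libraries. Every cKO library stood above every WT library, by 2.99-fold on average (voom log2 difference 1.55, SE 0.223, adjusted p = 0.00266), and the call held with each library left out. In the authors' deposited table its FDR is 1.78e-05.

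Kcnt1, a Na+-activated channel, had 0.659, 0.630 and 0.455 FPKM in cKO libraries, against 0.180, 0.367 and 0.261 FPKM in WT libraries (voom log2 difference 1.11, SE 0.298, adjusted p = 0.0345). The groups did not overlap, but the call was lost without HM-5, HM-13, HC-1 or HC-10 (adjusted p up to 0.133). Its paralog Kcnt2 averaged 1.83 ± 0.400 FPKM in cKO and 1.73 ± 0.0685 FPKM in WT cortex (SD, n = 3 each, limma adjusted p = 0.86). Kcnmb4, the neuronal β subunit of the large-conductance channel, averaged 1.44 ± 0.561 FPKM in cKO and 2.20 ± 0.520 FPKM in WT cortex (limma adjusted p = 0.178), and it was called lower when HM-13 was left out.

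Of the 8 members for voltage-gated Na+ channels, 2, Scn11a and Scn2b, reached the level filter and were tested with limma, with 0 called and 1, Scn11a, at an unadjusted p under 0.05. Among those that voom called, Scn2a1 was lower and Scn11a higher in cKO. Scn2a1 (named Scn2a in GENCODE), an α subunit of central neurons, had 0.448, 0.468 and 0.338 FPKM in cKO libraries, against 0.706, 0.596 and 0.745 FPKM in WT libraries (voom log2 difference -0.71, SE 0.208, adjusted p = 0.0488). The groups were apart, but leaving out any of the 6 libraries ended the call (adjusted p up to 0.178).

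Scn11a (chr9:119753759-119825456, minus strand), an α subunit known from sensory neurons, had 2.67, 2.77 and 2.41 FPKM in cKO libraries, against 1.25, 1.90 and 1.91 FPKM in WT libraries. The groups did not overlap. It missed the threshold with limma (log2 difference 0.44, adjusted p = 0.0643) and passed with voom (adjusted p = 0.0395), a call lost without HM-5, HM-13, HM-16 or HC-1 (adjusted p up to 0.138).

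Limma and voom called 0 of the 3 Na+ channel β subunits, which modify gating and also act in adhesion; at an unadjusted p under 0.05 limma gave 0 and voom 2. Scn2b had 3.10, 2.70 and 2.99 FPKM in cKO libraries, against 2.34, 2.56 and 1.69 FPKM in WT libraries, without overlap but with a limma adjusted p of 0.159. Scn4b averaged 0.965 ± 0.196 FPKM in cKO and 0.620 ± 0.246 FPKM in WT cortex (SD, n = 3 each, voom adjusted p = 0.145).

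Ca2+ channel genes held the 1 member that fell. Cacna1e (chr1:154390731-154884501, minus strand), the pore subunit of R-type channels, had 1.57, 1.56 and 1.68 FPKM in cKO libraries, against 2.62, 3.18 and 2.55 FPKM in WT libraries. All cKO values lay below all WT values, and the cKO mean was 57.6% of the WT mean (log2 difference -0.54, SE 0.114, limma adjusted p = 0.0189). With limma the call was lost without HM-5 or HM-16 (adjusted p up to 0.0802), whereas with voom it held in all 6 such fits. Cacna1e was carried by 171 to 514 reads per library.

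Cacna1h, a T-type α subunit that opens at low voltage, went the other way. It had 1.33, 1.05 and 1.49 FPKM in cKO libraries, against 0.429, 0.520 and 0.679 FPKM in WT libraries (log2 difference 0.57, SE 0.124, limma adjusted p = 0.0207). The groups did not overlap, but the row rests on 8 to 26 reads and on a transcript of 1662 bases, against 8230 bases for the longest transcript of the gene. Exons of Tpsg1 overlap Cacna1h on the other strand, and without a cKO library the gene no longer passed the filter. Of the 3 limma fits without a WT library, the call was kept in 1 and lost without HC-1 or HC-8 (adjusted p up to 0.0625). With voom it was lost without HM-5, HM-16, HC-1, HC-8 or HC-10 (adjusted p up to 0.113). The other T-type genes, Cacna1g and Cacna1i, were below the level filter, at 0.544 ± 0.192 and 0.216 ± 0.149 FPKM in cKO against 0.435 ± 0.213 and 0.207 ± 0.172 FPKM in WT cortex (SD, n = 3 each).

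The auxiliary Ca2+ channel subunits held the most abundant member, and limma and voom called 0 of them, with 0 also at an unadjusted p under 0.05. Cacng4, a γ-type subunit that also traffics AMPA receptors, had 115, 101 and 126 FPKM in cKO libraries, against 112, 101 and 102 FPKM in WT libraries, and the groups overlapped (limma adjusted p = 0.402). Cacng8, of the same subfamily, averaged 16.2 ± 0.398 FPKM in cKO and 17.2 ± 0.996 FPKM in WT cortex (SD, n = 3 each, limma adjusted p = 0.472). The α2δ genes Cacna2d1 and Cacna2d3, which carry α1 subunits to the membrane, averaged 2.33 ± 0.603 and 2.31 ± 0.459 FPKM in cKO, against 2.19 ± 0.370 and 2.30 ± 0.408 FPKM in WT cortex (limma adjusted p = 0.852 and 0.987). The β genes Cacnb2 and Cacnb3 averaged 0.551 ± 0.167 and 0.533 ± 0.168 FPKM in cKO, against 0.505 ± 0.253 and 0.509 ± 0.0479 FPKM in WT cortex, and were too low for limma.

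Both TRP channel genes in the set were higher in cKO. Trpv6, the Ca2+-selective channel known from Ca2+ uptake in the gut and placenta, had 1.99, 1.47 and 1.65 FPKM in cKO libraries, against 0.607, 0.509 and 0.769 FPKM in WT libraries. The groups were well apart, by 2.71-fold on average (log2 difference 0.73, SE 0.124, limma adjusted p = 0.00925), and Trpv6 was called with voom with each of the 6 libraries left out. Like Kcnab3, it did not pass the limma filter without a cKO library. Its promoter, shown above, holds the lowest G+C share of the 4 printed.

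Trpm4, a monovalent cation channel opened by intracellular Ca2+, had 0.479, 0.465 and 0.692 FPKM in cKO libraries, against 0.0628, 0.166 and 0.177 FPKM in WT libraries, on 3 to 31 reads. Every cKO library was above every WT library (voom log2 difference 2.03, SE 0.449, adjusted p = 0.0165), and the call was lost without HM-16 (adjusted p = 0.057).

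Limma and voom called 0 of the 3 members that are not channel subunits, and each gave 1 at an unadjusted p under 0.05. Kcnmb4os2, an RNA from the strand opposite to Kcnmb4, had 2.44, 2.98 and 2.68 FPKM in cKO libraries, against 5.41, 3.59 and 3.41 FPKM in WT libraries, without overlap (limma adjusted p = 0.0944). Its exons overlap those of Kcnmb4, so reads of the 2 cannot be told apart where counting ignored strand. Kcnq1ot1, the imprinted antisense RNA that silences neighbouring genes, averaged 1.95 ± 0.358 FPKM in cKO and 2.05 ± 0.246 FPKM in WT cortex (SD, n = 3 each, limma adjusted p = 0.81). Trpc4ap, which encodes a TRP-associated protein, averaged 0.792 ± 0.199 FPKM in cKO and 0.737 ± 0.0664 FPKM in WT cortex.

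**Figure D5:**
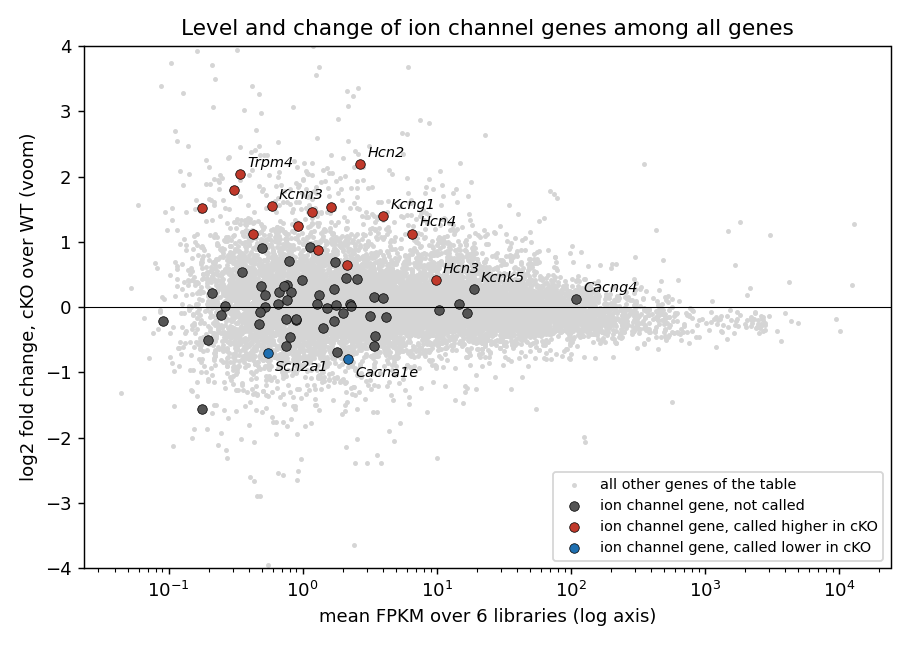
Mean FPKM over the 6 libraries (log axis) against the voom log2 difference of cKO over WT for every gene of the table, with the 68 channel genes as large points; 8 genes lie beyond the vertical axis. The channel genes called higher all lie left of 10 FPKM, and the most abundant one, Cacng4, is not called.

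By ion, the K+ channel subunits numbered 40, with 3 rising among 22 tested and 6 called higher and 0 lower with voom. Over all genes, limma and voom called 9.62% and 8.84% higher and 8.39% and 6.62% lower. The Ca2+ channel subunits numbered 12, with 1 rising and 1 falling among 8 tested. Kcnab3 among the K+ genes and Cacna1h among the Ca2+ genes passed the level filter only through their cKO libraries. Kcnc1, with 1 WT library of at least 1 FPKM, also needed its cKO libraries to pass. The limma rises of Kcnab3, Kcnc1 and Cacna1h are therefore not to be read against the shares of all genes. The Na+ channel subunits numbered 8, with 0 called among 2 tested with limma and 2 higher and 1 lower with voom. Of the 7 members with a mean of at least 5 FPKM, Hcn3 and Hcn4 rose. With a filter of at least 5 FPKM in at least 3 libraries, limma called 26% of 5756 genes in either direction.

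Other genes of ion transport were read from 4 lists, beside the 9.62% of all genes called higher and 8.39% called lower. Of 23 tested genes of other ion channels, 6 rose and 2 fell, with a median log2 difference of 0.18. Stim1, the Ca2+ sensor of the endoplasmic reticulum, had 20.2, 16.5 and 18.8 FPKM in cKO libraries, against 8.17, 7.34 and 7.87 FPKM in WT libraries. These values were apart by 2.38-fold (log2 difference 1.15, SE 0.0984, limma adjusted p = 0.00117), and the call held without any 1 library.

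Lrrc8c, a subunit of the volume-regulated anion channel, was 1.77-fold higher (limma adjusted p = 0.00838), and Tmem38b, which encodes a K+ channel of the endoplasmic reticulum, was 1.41-fold higher (limma adjusted p = 0.023). Mcoln3, an endolysosomal cation channel, fell to 2.22, 1.76 and 2.49 FPKM in cKO libraries, against 5.82, 5.91 and 3.62 FPKM in WT libraries (limma adjusted p = 0.0153). Without overlap, its cKO mean was 42.2% of the WT mean. The Mcoln3 call was lost without HM-5 (adjusted p = 0.0613) and that of Tmem38b without HM-5, HM-16, HC-1 or HC-10 (up to 0.0852).

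Of 11 tested pumps, exchangers and cation-chloride cotransporters, 2 rose and 0 fell. Atp1b2, a β subunit of the Na+,K+-ATPase, had 25.1, 21.2 and 29.5 FPKM in cKO libraries, against 14.2, 13.1 and 12.9 FPKM in WT libraries, 1.89-fold higher without overlap (limma adjusted p = 0.00501, kept without any 1 library). Atp2b1, a plasma membrane Ca2+ pump, was 1.26-fold higher (limma adjusted p = 0.0196; lost without HM-5, HM-16, HC-1 or HC-10, up to 0.0899).

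Of 16 tested channel partner proteins, 3 rose and 3 fell. The ubiquitin ligase Nedd4 fell to 77.0% of its WT mean (limma adjusted p = 0.00694, log2 difference -0.38; not called with quantile normalization, at -0.19, or with library totals, at -0.47), whereas its paralog Nedd4l, which marks Na+ channels for removal, was 1.85-fold higher (limma adjusted p = 0.0204; lost without HC-10, 0.0667). Akap5, which anchors kinases to channels, was 1.65-fold higher (limma adjusted p = 0.0157; lost without HM-5 or HM-16, up to 0.0706).

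Of 7 tested genes for REST and its cofactors, limma called 0 and voom called 0, and each gave 1 at an unadjusted p under 0.05. Rest itself had 1.31, 1.12 and 1.09 FPKM in cKO libraries, against 0.959, 1.12 and 0.704 FPKM in WT libraries, overlapping between the groups (limma adjusted p = 0.358). The demethylase gene Kdm1a and the corepressor gene Rcor1 were the most abundant of the list and gave limma adjusted p-values of 0.725 and 0.0631.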

How the data were processed

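Per the submitters' processing notes, which name tools without their roles, the authors used the build mm10 and DESeq2 1.22.1, featureCounts 1.6.1, bcl2fastq 1.8.4, R 3.4.1 and STAR 2.5.4b; the notes name neither the strandedness nor the annotation. The authors deposited FPKM values per library and, per the file headers, a baseMean signal, a log2 fold change, a p-value and an FDR for each of 14379 rows. Groups follow the letters in the column names. One row per symbol was kept, that of the highest deposited baseMean signal, giving 12041 symbols; 4509 rows have no FDR. The smallest row sum is 30 reads.

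Deposited FPKM were scaled by size factors, and 100% of values gave whole reads within 0.001. Those reads gave the depths and were the input to voom. A number of reads by itself speaks to counting error only, whereas the voom p-values rest on the variation among the libraries of each group. In R 4.3.3, limma 3.58.1 (trend on the mean level) was fitted to log2(FPKM + 1) for genes with at least 1 FPKM in at least 3 libraries. It understates the fold of low genes. voom on the reads called 1861 of 12041 genes, against 1685 of 9359 with limma. Alternatives were other pseudocounts, filters and scalings, every row tested, and each library left out; voom with a library left out was added after seeing the data. Names, positions and overlaps come from GENCODE (GRCm38), and 18 of the 68 members have an exon overlapped on the other strand. Named genes were Hdac1 and Hdac2, every called member, the 2 most abundant members of each type, members called only with voom or by the authors' FDR, and up to 4 genes of each transport list, of which some are not reported here; Kcnb2, Kcnv1, Cacna1g, Cacna1i, Kcne2, Trpc4ap, Rest, Ttr, Clic6, Msx1, Lmx1a and Otx2 were added after their values were seen. The members and lists were chosen with earlier results of these data known.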

Additional observations from a re-analysis of the deposited data

How the results depend on the processing

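The count of called channel genes depended on the scaling and on single libraries. Against 9 called, 4 were called with a filter of at least 5 FPKM, which left 8 tested, 5 with library totals as scaling and 16 with voom on all 68; it was 3 to 8 when 1 library was left out, with 3 without HM-5 and 3 without HM-16. Hcn2, Hcn4 and Kcng1 were called without any 1 library. All genes called numbered 1685, 497 with library totals and 511 to 1773 without 1 library (511 without HM-5, 545 without HM-16, 1103 without HC-1, 888 without HC-10). With at least 5 FPKM, 1497 of 5756 genes tested were called (26%), 699 of them higher and 798 lower in cKO. Of the 16 called with voom, 9 to 14 were called without 1 library (9 without HM-5, 10 without HM-16). The median log2 difference of tested members, 0.08, was 0.19 with at least 5 FPKM, -0.022 with library totals and 0.03 to 0.14 without 1 library. Library totals moved the median of all genes to -0.09 and the share of calls that were higher to 60.6%, against 53.4%. Library totals also ended the calls of Hcn3, Kcnc1, Cacna1e, Lrrc8c, Tmem38b, Atp2b1, Nedd4, Akap5 and Nedd4l, and Cacna1h no longer passed the filter. Nedd4 was also lost with quantile normalization. Hcn3 was not called with quantile normalization or without a filter; the cause was not tested.

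Several uncalled genes changed sign near 0. With library totals the log2 difference was -0.022 for Cacna2d1, -0.050 for Cacna2d3, -0.042 for Kcna3 and -0.027 for Kcnt2. With quantile normalization it was -0.050 for Cacna2d3, -0.020 for Kcna3, -0.0097 for Kcnt2 and 0.049 for Kdm1a. Kcnj13 gave 0.33 with a pseudocount of 0.1 and 0.41 with voom. Without 1 library the ranges were -0.084 to 0.17 for Cacna2d1, -0.099 to 0.10 for Cacna2d3, -0.16 to 0.28 for Kcna3, -0.13 to 0.072 for Kcne1l, -0.42 to 0.055 for Kcnj13, -0.14 to 0.037 for Kcnq1ot1, -0.061 to 0.14 for Kcnt2 and -0.070 to 0.0097 for Kdm1a, and with voom -0.046 to 0.60 for Cacnb2 and -0.21 to 0.14 for Cacnb3.

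No paired analysis was possible because the table's columns do not carry the replicate numbers of the labels. With 3 libraries a group and few reads for many channel genes, an uncalled gene is not shown to be equal between the groups.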
